A study of Homo sapiens with 22 samples.

Results

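The genes described here are the long intergenic noncoding RNAs (lincRNAs) that carry a LINC symbol, LINC followed by a number only, in RNA-seq tables of 11 established human glioblastoma cell lines. They were found by matching the Ensembl gene IDs of each table to symbols: 80 of the 2221 genes listed for 8 lines, and 218 of the 5383 genes listed for 3 lines. The 218 IDs carry 217 symbols, because LINC01605 stands for 2 IDs. A set of 28 genes is in both tables, so 270 genes were described in all. The 8 lines are U-87MG, U-138MG, T98G, SNU-1105, LN-229, LN-18, KNS-42 and KALS-1, and the 3 lines are SNU-466, AM-38 and A-172. No line was treated, and each was grown with serum (20% for AM-38, 10% for the others) and sequenced as 2 libraries of poly(A) RNA. The medium was DMEM for A-172, KNS-42, LN-18 and LN-229, EMEM for AM-38, T98G, U-138MG and U-87MG, and RPMI for KALS-1, SNU-466 and SNU-1105. The labels number the 2 libraries of each line but do not say that each had its own culture. A p-value here therefore measures the spread within these pairs, and that spread may be technical. A cell line stands for 1 tumour, and in its bulk RNA fewer cells with a transcript and less transcript per cell cannot be told apart.

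Intergenic lncRNAs are transcribed by RNA polymerase II from stretches between protein-coding genes, and are capped, spliced and often polyadenylated like mRNA. As a class they are known for low levels and for being made in few tissues or cell types, and a number of them lie beside developmental genes. A LINC number is a systematic name and carries no function. Most of the genes below have no established role, and a role is given only where one is known.

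The listed genes are not a random sample of the transcriptome. Of all genes in the 8-line table, 99.3% differed at least 2-fold in mean FPKM between KALS-1, LN-18 and T98G together and the remaining lines, and so did 79 of the 80 LINC genes. In the 3-line table, 93.9% of all genes and 216 of 218 LINC genes differed at least 2-fold between SNU-466 and the other lines. How the genes were picked is not stated, so every count is of listed genes. Library totals ran from 16958669 to 21213215 reads, and LINC genes took 0.0943% to 0.661% of the listed reads. The 2 libraries of T98G and of SNU-1105 differed most: of LINC genes with at least 20 reads in the pair, 47.1% in T98G and 52.9% in SNU-1105 lay within 1.5-fold, against 72.0% to 87.2% in the other lines. Glial and related markers were uneven, and several were nearly absent from some lines. Among the 3 lines the astrocyte gene GFAP averaged from 0.025 FPKM in AM-38 to 3.41 FPKM in SNU-466. SOX10 averaged from 0.005 FPKM in A-172 to 136.54 FPKM in SNU-466, and NES from 24.025 FPKM in AM-38 to 84.24 FPKM in SNU-466. EGFR ran from 0.005 FPKM in SNU-466 to 28.965 FPKM in AM-38. Among the 8 lines VIM ran from 239.69 FPKM in LN-18 to 955.48 FPKM in U-87MG. SOX2, a neural stem cell factor, averaged from 0.010 FPKM in T98G to 319 FPKM in KNS-42, and S100B from 0.025 FPKM in A-172 to 958 FPKM in SNU-466. Markers of other cell types were uneven too. Of the leukocyte and myeloid genes, PTPRC reached at most 0.385 FPKM (KALS-1) and ITGAM 0.530 FPKM (A-172), but CD14 reached 6.33 FPKM in KALS-1, CSF1R 4.74 FPKM in SNU-1105 and CD74 448.5 FPKM in LN-229. The endothelial gene KDR reached 12.5 FPKM in SNU-1105, but PECAM1 and CDH5 at most 0.125 and 0.980 FPKM among the 3 lines. Of the epithelial keratin genes, KRT18 reached 66.8 FPKM in LN-18 and 320.4 FPKM in A-172, and KRT8 22.4 and 141.6 FPKM there. KRT19 and the epithelial cadherin gene CDH1 reached at most 0.620 and 1.57 FPKM among the 8 lines. The part of these differences in the LINC levels was not tested.

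LINC genes were low compared with the other genes of the same tables. Levels are given as FPKM as deposited, a read count scaled by gene length and by the total of the library, so that genes of different length can be set side by side. In the line where it was highest, the median LINC gene stood at 0.723 FPKM in the 8-line table, against 3.24 FPKM for the other 2141 listed genes. For the 3-line table the medians were 0.715 FPKM for LINC genes and 3.67 FPKM for the other 5165. Noncoding RNAs named as antisense, divergent, intronic or overlapping transcripts lay between, at 1.16 FPKM (115 genes) and 1.14 FPKM (247 genes). At least 1 FPKM in both libraries of some line was reached by 32 of 80 LINC genes (40.0%) and 81 of 218 (37.2%), against 70.4% and 71.2% of other genes. Only 4 and 10 LINC genes had a line with a mean of 10 FPKM or more. These are descriptions of the listed genes and were not tested.

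**Figure D1:**
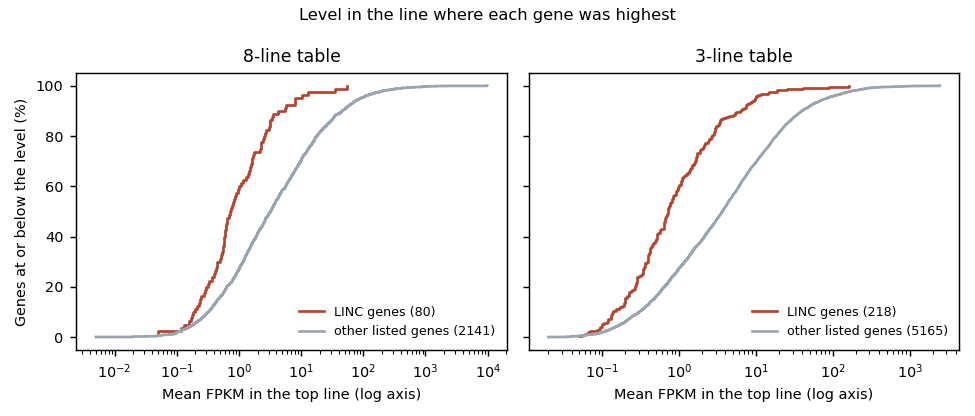
Cumulative share of genes (vertical axis, percent) by the mean FPKM in the line where each gene was highest (horizontal log axis), for LINC genes in red and all other listed genes in grey, 1 panel per table. The LINC curve lies left of the other in both panels, with medians of 0.723 and 0.715 FPKM against 3.24 and 3.67 FPKM.

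Their positions mostly bear out the word intergenic. GENCODE 29 holds 79 and 214 of the genes and types 71 and 190 of them as lincRNA. The span of 4 and 6 genes meets a protein-coding gene. Exons of 16 and 30 overlap an exon of a gene on the other strand, and exons of 4 and 8 one on the same strand. The libraries kept strand, but no source used here says whether the counting used it, so reads of such pairs may be mixed.

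To show what lies at the start of these genes, promoter sequences are printed for 5 of them: LINC00158, LINC02454 and LINC02518, each restricted to 1 of the 3 lines by the FPKM limits used here, LINC00942, which is high in LN-18 and T98G, and LINC00511, which is high in KNS-42 and LN-229. Each runs from 250 bases before to 50 bases after the RefSeq start (GRCh38.p14), 5′ to 3′ on the gene's strand. Capitals mark each CG dinucleotide and each TATAAA, read on either strand (TTTATA is its reverse).
LINC00158, chr21:25431652-25431951, minus strand: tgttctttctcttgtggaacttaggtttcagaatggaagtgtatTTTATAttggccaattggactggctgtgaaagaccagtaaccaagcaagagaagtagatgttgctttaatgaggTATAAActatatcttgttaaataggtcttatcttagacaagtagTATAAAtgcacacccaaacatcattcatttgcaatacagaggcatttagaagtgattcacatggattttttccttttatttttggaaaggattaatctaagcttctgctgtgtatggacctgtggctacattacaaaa
LINC02454, chr12:65602619-65602918, plus strand: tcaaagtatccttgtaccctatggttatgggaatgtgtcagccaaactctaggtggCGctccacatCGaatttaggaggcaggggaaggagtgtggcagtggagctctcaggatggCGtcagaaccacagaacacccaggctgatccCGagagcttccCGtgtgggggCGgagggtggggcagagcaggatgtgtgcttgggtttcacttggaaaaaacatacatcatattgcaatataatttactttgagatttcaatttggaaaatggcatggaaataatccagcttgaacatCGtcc
LINC02518, chr6:113433398-113433697, minus strand: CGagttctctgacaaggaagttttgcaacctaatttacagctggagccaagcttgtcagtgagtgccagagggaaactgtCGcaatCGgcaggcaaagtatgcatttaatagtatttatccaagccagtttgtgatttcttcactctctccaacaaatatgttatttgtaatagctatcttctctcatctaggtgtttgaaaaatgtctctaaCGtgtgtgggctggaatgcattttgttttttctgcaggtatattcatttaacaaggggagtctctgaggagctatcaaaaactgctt
LINC00942, chr12:1500241-1500540, plus strand: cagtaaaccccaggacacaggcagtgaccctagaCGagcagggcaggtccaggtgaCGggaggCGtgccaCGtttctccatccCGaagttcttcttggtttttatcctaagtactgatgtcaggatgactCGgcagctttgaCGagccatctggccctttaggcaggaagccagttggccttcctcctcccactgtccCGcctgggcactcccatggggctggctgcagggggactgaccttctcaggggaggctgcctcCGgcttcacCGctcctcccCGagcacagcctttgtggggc
LINC00511, chr17:72640423-72640722, minus strand: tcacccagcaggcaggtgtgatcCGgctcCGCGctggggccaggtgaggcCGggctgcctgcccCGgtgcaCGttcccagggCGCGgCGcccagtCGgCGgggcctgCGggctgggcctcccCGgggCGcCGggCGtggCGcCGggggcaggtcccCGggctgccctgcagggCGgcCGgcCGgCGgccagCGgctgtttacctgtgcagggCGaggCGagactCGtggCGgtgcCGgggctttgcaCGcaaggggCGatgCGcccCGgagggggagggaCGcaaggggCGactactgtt

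The 5 promoters range from 0 CG dinucleotides in LINC00158, through 4 in LINC02518, 7 in LINC02454 and 11 in LINC00942, to 35 in LINC00511. RefSeq promoters were found for 169 LINC symbols, with a median of 5 CG dinucleotides per promoter, against a median of 14 over all 35116 promoters of the table. Fewer than 5 were counted in 84 of the 169 (49.7%), against 29.6% of all promoters, and 20 or more in 29 (17.2%), against 41.2%. TATAAA on either strand was found in 26 of the 169 (15.4%), against 11.5% of all promoters. In LINC00158 the first copy on the gene's strand begins 132 bases before the start. The 11 restricted genes with a promoter also had a median of 5 CG dinucleotides. A match is a run of letters and says nothing of a factor.

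Restriction to 1 line was rare by the limits used: both libraries of the line at 1 FPKM or more and every library of the other lines of the table below 0.1 FPKM. A single LINC gene of 80 met them in the 8-line table, LINC01029 in LN-18, against 1.8% of all listed genes. Of the 218 in the 3-line table, 17 (7.8%) did, against 6.8% of all listed genes, so at these limits the shares are close to the background. In the 8-line table the share was further from it at looser limits. With below 0.2 FPKM elsewhere it was 8 of 80 (10%) against 4.32% of all genes, and with 0.5 FPKM in the line 5 of 80 (6.25%) against 2.79%. At stricter limits it stayed close, at 1.25% against 0.946% with 2 FPKM and 1.25% against 0.9% with below 0.05 FPKM elsewhere. The 3-line shares were 12.8% against 10.3% with 0.5 FPKM and 4.59% against 4.68% with 2 FPKM. With below 0.05 and 0.2 FPKM elsewhere they were 5.05% against 4.18% and 12.4% against 10.1%. The same limits in CPM (reads scaled by the library total only), which favours long genes, gave 1 of 80 (1.25%) against 0.9% and 18 of 218 (8.26%) against 4.59%, and 0 and 7 of these genes were among those restricted in FPKM. Of the 17, 11 were restricted to AM-38, 5 to SNU-466 and 1 to A-172. With fewer other lines in the 3-line table the limits are easier to meet, so the tables were not compared. Of LINC genes that reached 1 FPKM in a line, 3.12% and 21.0% were restricted, against 2.59% and 9.49% of other genes that did so.

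LINC01029 (chromosome 18, 77971294 to 77993722) was the restricted gene of both tables with the highest level. It stood at 10.85 and 9.79 FPKM in LN-18, and no library of the other 7 lines exceeded 0.020 FPKM, or 5 reads in all. Among the 3 lines it stood at 24.59 and 26.75 FPKM in AM-38, against 0 and 0.030 FPKM in A-172 and 0 in both libraries of SNU-466. The gene was chosen by the restriction limits, so the separation of its LN-18 and AM-38 libraries from all others follows from that choice. The differences and p-values below rest on the same values, describe the size of the gap and add no support. Against the next line, U-87MG with 3 reads, LN-18 was higher by 9.16 on the log2 scale (SE 0.53, edgeR quasi-likelihood test, adjusted p = 5.13e-08). AM-38 was higher than A-172, also with 3 reads, by 10.44 (SE 0.20, adjusted p = 2.94e-61).

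In AM-38 the other restricted genes with the highest levels were LINC02780, LINC00520 and LINC02454. LINC02780 had 11.28 and 11.79 FPKM in AM-38 and no read in A-172 or SNU-466. Counting 3 reads over the A-172 pair as the floor, AM-38 was at least 280-fold higher in CPM. LINC00520 had 9.23 and 8.72 FPKM in AM-38, against 0.060 and 0 FPKM in A-172 and 0.020 and 0 FPKM in SNU-466. It is in both tables, and in the 8-line table it was highest in U-87MG (2.33 and 2.89 FPKM), against 0.20 and 0.13 FPKM in U-138MG, the next line. LINC02454 had 7.74 and 7.62 FPKM in AM-38 and at most 0.040 FPKM elsewhere. LINC01320, a gene that spans 33706886 to 34738231 on chromosome 2, had 1.64 and 1.80 FPKM in AM-38 and no read elsewhere, and AM-38 was at least 230-fold higher than A-172 in CPM. LINC00958, LINC01404, LINC01470, LINC02086, LINC01363 and LINC00488 were restricted to AM-38 at lower means, from 4.13 FPKM for LINC00958 to 1.08 FPKM for LINC00488.

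SNU-466 held LINC03007 (chromosome 7), LINC02518, LINC03082, LINC01739 and LINC01778. LINC03007 had 7.70 and 7.27 FPKM in SNU-466 and 0 reads in A-172 and AM-38, at least 736-fold higher than A-172. LINC02518 had 3.26 and 3.09 FPKM and LINC01739 1.91 and 1.80 FPKM in SNU-466, and neither had a read in A-172 or AM-38 (at least 31.1-fold and 50.6-fold higher than A-172 in CPM). LINC03082 had 2.15 and 2.77 FPKM in SNU-466 and 0.010 and 0.030 FPKM in AM-38. LINC01778 averaged 1.66 FPKM in SNU-466. LINC00158 was the restricted gene of A-172, with 1.3 and 1.69 FPKM there, against 0 and 0.010 FPKM in AM-38 and 0 in SNU-466. Such zeros cover counting error only: 3 reads, the upper limit of a count of 0, come to 0.141 to 0.177 CPM in a library.

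Several genes lay just beside the limits. LINC00488 was just inside, at 1.04 FPKM in its lower AM-38 library and up to 0.090 FPKM in A-172. LINC02732 was just outside, at 3.33 FPKM in the lower SNU-466 library and 0.10 FPKM in AM-38, as was LINC02082 at 1.05 FPKM in KNS-42 and 0.10 FPKM in LN-229. LINC02377 reached 0.920 FPKM in its lower AM-38 library with at most 0.030 FPKM elsewhere.

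Nearly all LINC genes differed among lines. After the filter on low counts, 71 of 80 and 194 of 218 could be tested, and 71 and 193 of these differed (edgeR quasi-likelihood test, adjusted p under 0.05 and line means at least 2-fold apart). The same was true of 99.7% and 98.3% of all tested genes, so these counts are at the background. A stricter comparison asked in which line a gene was at least 2-fold above every other line of its table, with the largest p over those pairs adjusted over all genes and lines. Of the 71 tested LINC genes of the 8-line table, 35 (49.3%) were highest in 1 line by this test, against 42.5% of all tested genes. Of the 194 of the 3-line table, 148 (76.3%) were, against 64.8%. All libraries of the top line exceeded all other libraries in each of the 35 and the 148. This separation largely follows from the call itself, and its share over all genes called highest was not counted. DESeq2 called 19 in place of 35 in the 8-line table, all among the 35. These are 26.8% of tested LINC genes, against 31.8% of all tested genes, so there the LINC share was the lower one. In the 3-line table DESeq2 called 134 in place of 148 (69.1%, against 60.1% of all tested genes).

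The lines shared these genes unevenly. LN-18 was highest for 13 LINC genes (18.3% of those tested), where 8.64% of all tested genes were. KALS-1 had 5 LINC genes (7.04%; 8.11% of all genes), U-138MG 5 (7.04%; 3.72%), KNS-42 3 (4.23%; 7.78%) and U-87MG 3 (4.23%; 5.11%). LN-229 had 2 (2.82%; 4.15%), T98G 2 (2.82%; 4.15%) and SNU-1105 2 (2.82%; 0.859%). AM-38 was highest for 76 LINC genes (39.2%), where 19.4% of all tested genes were. SNU-466 was highest for 43 (22.2%; 32.1% of all genes), and A-172 for 29 (14.9%; 13.2%). Whether these shares differ from the background was not tested.

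**Figure D2:**
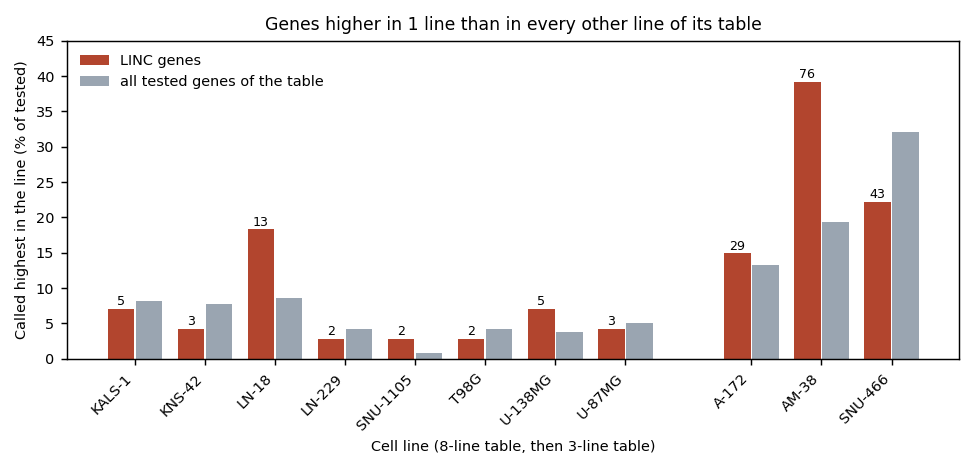
Share of tested genes (vertical axis, percent) that were at least 2-fold higher in 1 line than in every other line of its table, for LINC genes (red, their number above the bar) and all tested genes (grey), by cell line, with the 3 lines of the second table at the right. In percentage points LINC genes exceed the background most in LN-18 (18.3% and 8.64%) and AM-38 (39.2% and 19.4%), and as a ratio in SNU-1105 (2.82% and 0.859%, from 2 LINC genes).

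The weight of single genes differed between lines. The 3 most abundant LINC genes held from 26.9% of the summed LINC FPKM in SNU-466, 38.4% in AM-38 and 41.0% in KALS-1 to 77.3% in T98G and 80.9% in KNS-42. KNS-42 had LINC02582 (chromosome 18, 73324941 to 73349878) at 56.9 and 52.7 FPKM, which was 62.6% of the summed LINC FPKM of the line. The next line, LN-18, had 1.34 and 1.29 FPKM, and all others at most 0.060 FPKM. KNS-42 exceeded LN-18 by 5.38 on the log2 scale (SE 0.32, edgeR adjusted p = 5.53e-09). LINC02082 was the second gene highest in KNS-42 named by size of difference, at 1.05 and 1.13 FPKM, against 0.10 and 0.040 FPKM in LN-229.

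LN-18 and T98G shared LINC00942 (chromosome 12, 1500525 to 1504424), at 33.2 and 35.8 FPKM in LN-18 and 28.6 and 29.8 FPKM in T98G. Every other library was at or under 0.260 FPKM. The LN-18 libraries both lie above those of T98G, but LN-18 was not called higher (log2 difference over T98G 0.24, SE 0.26, edgeR adjusted p = 1). LINC00942 made up 41.2% of the summed LINC FPKM in LN-18 and 57.9% in T98G. LINC02009 was called highest in LN-18, with 3.06 and 3.91 FPKM there and 0.170 and 0.190 FPKM in SNU-1105, the next line (log2 difference 4.26, SE 0.46, edgeR adjusted p = 1.79e-06). LINC00491, also called highest in LN-18, was low at 0.50 and 0.80 FPKM, with 3 reads in all other lines together, and DESeq2 did not call it (log2 difference 5.995, adjusted p = 0.657).

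LINC01081, which lies upstream of FOXF1 and has been described in lung as a positive regulator of that gene, followed the same pair of lines. It had 6.17 and 5.05 FPKM in T98G and 3.34 and 3.36 FPKM in LN-18, and at most 0.150 FPKM in any other library. T98G was not called above LN-18 (log2 difference 0.74, SE 0.35, edgeR adjusted p = 0.317). FENDRR, the lncRNA that starts beside FOXF1, lies 173.2 kb away and averaged 17.9 FPKM in T98G and 48.1 FPKM in LN-18, with at most 0.255 FPKM elsewhere. FOXF1, a forkhead factor of mesenchyme, averaged 46.9 FPKM in T98G and 104 FPKM in LN-18, and 5.06 FPKM in KNS-42, the next line.

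T98G itself was highest for LINC00842 (2.60 and 1.69 FPKM) and LINC01484 (0.40 and 0.840 FPKM), against 0.730 and 0.410 FPKM and 0.120 and 0.130 FPKM in LN-18. LINC00842 lies in a duplicated stretch of chromosome 10, so its reads may be shared with near-identical copies. The call of LINC00842 was lost under DESeq2 and without KALS-1 replicate 2 or LN-18 replicate 2 (log2 difference 1.56 to 1.92, adjusted p up to 0.198). That of LINC01484 was lost under DESeq2 and without T98G replicate 2 or either LN-18 library (1.69 to 2.41, adjusted p up to 0.237).

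LINC00511, reported in several cancers, was high in a pair of lines. It had 8.09 and 8.06 FPKM in KNS-42 and 7.60 and 7.60 FPKM in LN-229, against 0.180 to 0.880 FPKM in the other 6 lines. Both KNS-42 libraries lie slightly above those of LN-229, but KNS-42 was not called higher (log2 difference over LN-229 0.09, SE 0.22, edgeR adjusted p = 1). Its deposited length is 27664 bases, and its CPM was 223 in KNS-42 and 210 in LN-229. Among the 3 lines SNU-466 was highest, with 3.31 and 3.59 FPKM against 0.420 and 0.410 FPKM in A-172 (log2 difference 3.05, SE 0.09, adjusted p = 9.52e-48). LN-229 was called highest for LINC02367 (1.48 and 1.77 FPKM, against 0.360 and 0.360 FPKM in KNS-42) and LINC02199 (0.450 and 0.30 FPKM, against 0.030 and 0.030 FPKM in U-87MG). LINC02768 was among the 3 most abundant in LN-229, at 5.26 and 3.21 FPKM, but its length is 190 bases and these values rest on 21 and 12 reads.

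LINC01605 marked another set of lines. It had 12.69 and 12.85 FPKM in U-138MG, 7.69 and 7.67 FPKM in U-87MG and 7.79 and 5.20 FPKM in SNU-1105, with at most 0.350 FPKM in the other 5 lines. U-138MG was not called above U-87MG (log2 difference 0.73, SE 0.30, edgeR adjusted p = 0.182). The same gene ID in the 3-line table had 19.3 and 18.3 FPKM in AM-38 and 10.5 and 10.6 FPKM in A-172, and 0 reads in SNU-466. A second ID of that symbol, typed as sense intronic and lying within the span of the first, ran the other way between these lines, with 13.0 and 15.8 FPKM in A-172 and 3.30 and 2.44 FPKM in AM-38 (log2 difference 2.32, SE 0.20, adjusted p = 1.51e-18).

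U-138MG was called highest for LINC01133, which has been studied in carcinomas, for LINC01940 and for LINC01151. LINC01133 had 3.5 and 3.4 FPKM there, against 0.510 and 0.40 FPKM in KNS-42 (log2 difference 2.92, SE 0.44, edgeR adjusted p = 0.000161). LINC01940 had 2.64 and 2.23 FPKM, against at most 0.170 FPKM in any other library, and LINC01151 0.470 and 0.340 FPKM, against at most 0.060 FPKM. In U-87MG, LINC01885 followed LINC00520 at 1.17 and 1.15 FPKM, against 0.180 and 0.020 FPKM in LN-229, and DESeq2 did not call it (log2 difference 3.55, adjusted p = 0.416). LINC01535 was the single LINC gene called lowest in a line of the 8-line table, with 0 reads in both U-87MG libraries. Of all tested genes, 10.6% were called lowest in some line: 1.05% in U-87MG, 1% in U-138MG, 3.29% in T98G, 0.0477% in SNU-1105, 0.239% in LN-229, 2.2% in LN-18, 1.15% in KNS-42 and 1.62% in KALS-1. It was called highest in LN-18, at 0.880 and 1.08 FPKM, and lost this call without LN-18 replicate 2 or T98G replicate 1 (edgeR adjusted p up to 0.105). The low call was lost on leaving out either U-87MG library or U-138MG replicate 1.

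SNU-1105 was highest for LINC01411 (5.05 and 6.44 FPKM, against 1.79 and 1.46 FPKM in U-87MG) and LINC02302 (1.67 and 2.88 FPKM, against 0.250 and 1.01 FPKM in LN-229). LINC01411 lost its call under limma (adjusted p = 0.114) and without U-87MG replicate 2. For LINC02302 the LN-229 pair is wide apart, and the adjusted p was 0.0357 (edgeR) but reached 0.826 among the 7 alternatives that lost the call. KALS-1 was highest for LINC01503 (3.11 and 3.04 FPKM, against 0.260 and 0.550 FPKM in SNU-1105), LINC02783 (1.51 and 1.68 FPKM, against 0.080 and 0.130 FPKM in KNS-42) and LINC01203 (0.30 and 0.270 FPKM). Their log2 differences over the next line were 2.92 (SE 0.37), 3.92 (SE 0.53) and 4.20 (SE 0.71), and DESeq2 did not call LINC01203 (log2 difference 4.28, adjusted p = 0.0858). LINC02577 was shared by LN-18 (2.87 and 3.37 FPKM) and KALS-1 (2.28 and 2.27 FPKM), without overlap, but LN-18 was not called higher (log2 difference of LN-18 over KALS-1 0.46, SE 0.38, edgeR adjusted p = 1).

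LINC01963 was the exception to these patterns. It was the only LINC gene of the 8-line table at 1 FPKM or more in both libraries of every line, from 2.51 and 2.44 FPKM in LN-18 to 8.97 and 6.95 FPKM in KNS-42, and it was among the 3 most abundant LINC genes in 7 of the 8 lines. KNS-42 and LN-229 did not differ beyond their spread (log2 difference of KNS-42 over LN-229 0.20, SE 0.23, edgeR adjusted p = 1). Of the other LINC genes, 48 reached 1 FPKM in no line, 20 in 1 line, 9 in 2 lines, 1 in 3 lines and 1 in 5 lines.

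**Figure D3:**
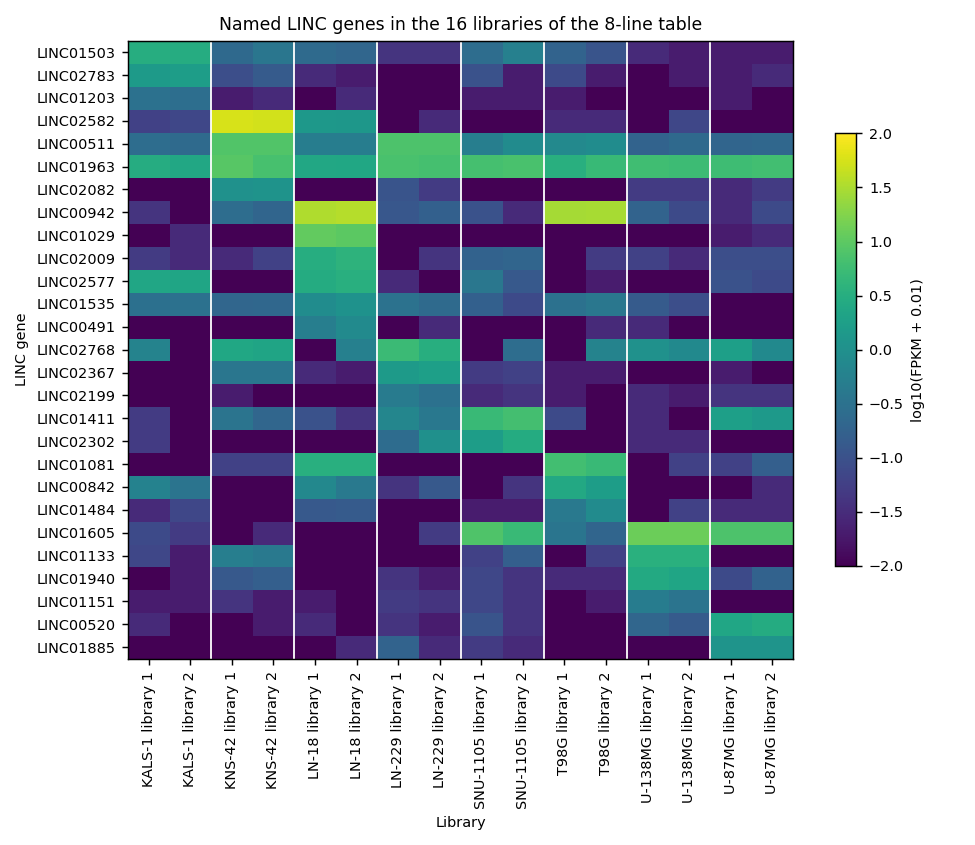
Level of the named LINC genes of the 8-line table (rows) in each of the 16 libraries (columns, 2 per line), as log10 of FPKM + 0.01. Most rows are bright in 1 line or a pair of lines, such as LINC02582 in KNS-42 (56.9 and 52.7 FPKM) and LINC00942 in LN-18 and T98G, whereas LINC01963 is at 2.44 FPKM or more throughout.

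The most abundant LINC gene of the 3-line table was LINC03061 (chromosome 13, 109269634 to 109278512). It had 161.7 and 159.8 FPKM in A-172 and 40.0 and 39.5 FPKM in AM-38, and SNU-466 had 2 reads. A-172 exceeded AM-38 by 2.02 on the log2 scale (SE 0.05, edgeR adjusted p = 1.75e-56), and LINC03061 made up 47.2% of the summed LINC FPKM of A-172. LINC00973 also joined A-172 (27.7 and 28.6 FPKM) and AM-38 (41.8 and 40.5 FPKM), with 0 reads in SNU-466. AM-38 was above A-172 by 0.55 on the log2 scale (SE 0.09), under the 2-fold limit. LINC01711 had 6.73 and 7.95 FPKM in A-172, against 0.050 and 0.210 FPKM in AM-38. LINC00460 was low, at 0.47 and 0.66 FPKM in A-172 and 0.35 and 0.13 FPKM in AM-38, and 3 alternatives lost its call (adjusted p up to 0.111).

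AM-38 was led by LINC02154 (X chromosome, 13266048 to 13303452), at 88.0 and 90.7 FPKM, against 1.41 and 1.74 FPKM in A-172 and 0 in SNU-466 (log2 difference over A-172 5.82, SE 0.11, edgeR adjusted p = 3.17e-62). Its neighbour LINC01203, 31324 bases away, was called highest in AM-38 too, at 0.140 FPKM. LINC00707 had 14.6 and 14.9 FPKM in AM-38, against 0.160 and 0.250 FPKM in A-172 and 0.20 and 0.180 FPKM in SNU-466 (log2 difference over A-172 6.16, SE 0.11, adjusted p = 4.46e-63). LINP1, an lncRNA known from the joining of DNA breaks, lies 39017 bases from it and was also highest in AM-38, at 9.96 FPKM against 0.895 FPKM in the second line.

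SNU-466 had the most LINC genes without a read among the 11 lines. In this line 110 of 218 (50.5%) had 0 reads in both libraries, against 14.4% of the other listed genes. The shares for LINC genes in A-172 and AM-38 were 9.63% each, against 6.12% and 5.56% of other genes. SNU-466 was called lowest for 123 of 194 tested LINC genes (63.4%), where 44.5% of all tested genes were. Together with 6 in AM-38 (10.5% of all tested genes) and 2 in A-172 (4.77%), 131 LINC genes (67.5%) were lowest in 1 line, against 59.9% of all tested genes. The table was dominated by genes that differ between SNU-466 and the others, and the part of that choice in these shares was not tested. The SNU-466 libraries totalled 16958669 reads, the lowest of the 22 libraries, and 19635974 reads, against 19521242 to 21213215 reads in A-172 and AM-38. Listed genes took 37.1% of the reads in each SNU-466 library, against 21.8% to 22.0% in A-172 and AM-38. The part of depth and of this share in the zeros was not tested.

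Among genes called highest in SNU-466, LINC01389 had 7.20 and 8.86 FPKM, against 1.27 and 0.820 FPKM in A-172 (log2 difference 2.93, SE 0.34, edgeR adjusted p = 1.29e-12). Its length is 483 bases. LINC01003 had 6.08 and 6.44 FPKM in SNU-466, against 2.94 and 2.67 FPKM in AM-38 and 2.47 and 2.70 FPKM in A-172. It was the only LINC gene at 1 FPKM or more in every library of the 3-line table. Its log2 difference over AM-38 was 1.16 (SE 0.16) and came to 0.87 and 0.64 under TMM and RLE scaling, below the 2-fold limit. LINC00632, the host transcript of the circular RNA antisense to CDR1, had 0.340 FPKM in both SNU-466 libraries, against 0.020 and 0.040 FPKM in A-172 and 0 in AM-38 (log2 difference over A-172 3.42, SE 0.24, adjusted p = 1.31e-22). LINC00518, a gene used in the molecular diagnosis of melanoma, had 0.720 and 0.60 FPKM in SNU-466, against 0.130 and 0 FPKM in A-172 and 0 in AM-38, and DESeq2 did not call it (log2 difference 3.399, adjusted p = 0.290). Exons of both genes overlap one on the other strand, CDR1 and MIR5689HG. LINC01622 was highest in SNU-466 (0.390 and 0.440 FPKM) and called lowest in A-172, where it had 0 reads.

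**Figure D4:**
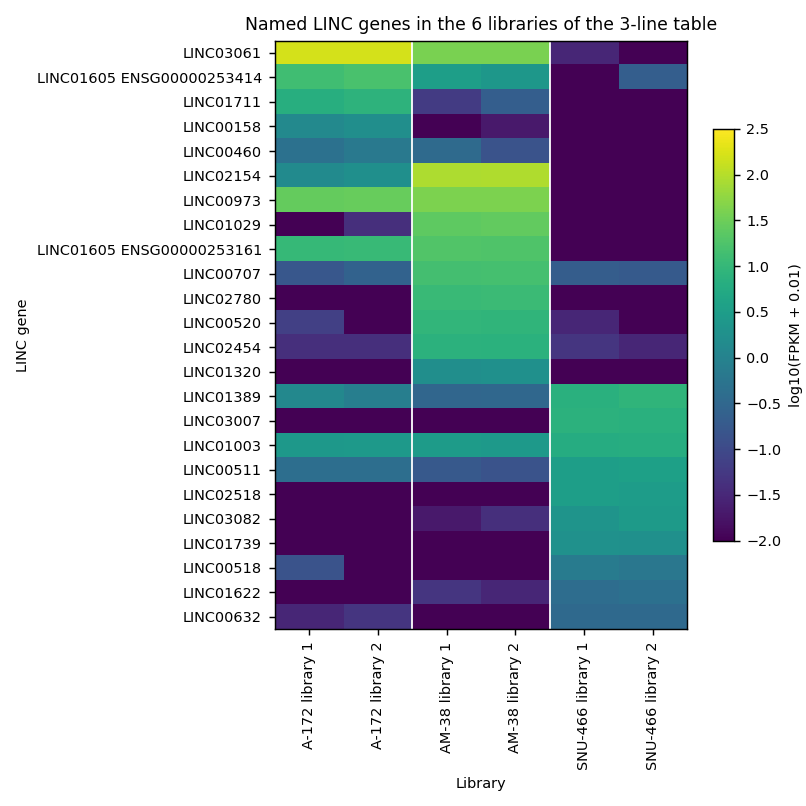
Level of the named LINC genes of the 3-line table (rows) in each of the 6 libraries (columns), as log10 of FPKM + 0.01, with the 2 rows of LINC01605 marked by their gene IDs. The top rows are bright in A-172, with LINC03061 at 161.7 and 159.8 FPKM, the middle rows in AM-38 and the lower rows in SNU-466, where most of the upper rows are at or near 0.

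**Figure D5:**
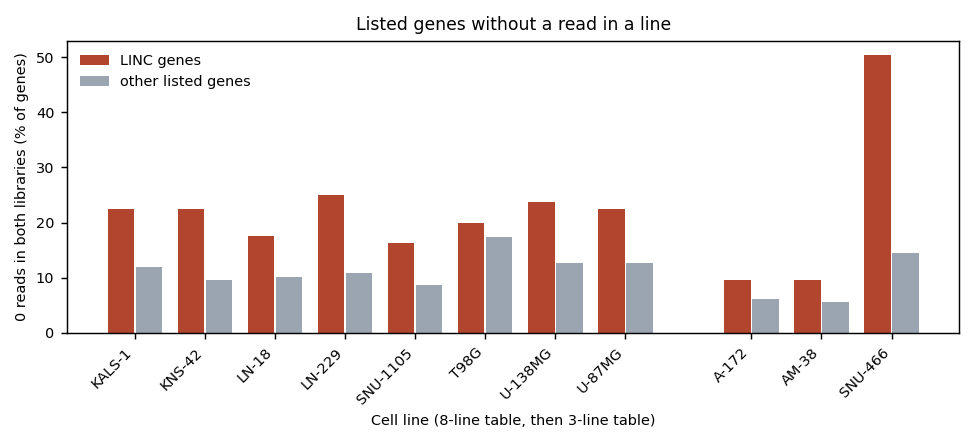
Share of genes with 0 reads in both libraries of a line (vertical axis, percent) for LINC genes (red) and the other listed genes (grey), by cell line, with the 3 lines of the second table at the right. SNU-466 stands highest, at 50.5% of LINC genes and 14.4% of other genes.

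Genes in both tables allow the 11 lines to be set side by side, with the limit that the tables were deposited and fitted apart. LINC02582 averaged 54.8 FPKM in KNS-42, 1.32 FPKM in LN-18 and 1.10 FPKM in AM-38, and at most 0.150 FPKM in the remaining lines. LINC02009 averaged 3.49 FPKM in LN-18 and 3.77 FPKM in AM-38, the same pair as LINC01029, and at most 0.375 FPKM in the others. LINC02057 averaged 10.8 FPKM in AM-38 and 2.92 FPKM in A-172, and 0.640 FPKM in LN-18, the highest of the 8 lines. LINC01503 averaged 3.08 FPKM in KALS-1 and 0.785 FPKM in SNU-466. LINC02009, LINC02057 and LINC01503 were picked after their values were seen, as examples of genes in both tables.

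A listed gene lay within 100 kb of a LINC gene called highest in 7 of 35 cases with a known position in the 8-line table and 82 of 145 in the 3-line table. Over all genes called highest this was so for 348 of 871 and 1965 of 3160. The nearest listed gene was called highest in the same line in 2 of the 7 (28.6%) and 31 of the 82 (37.8%), against 39.4% and 47.7% of all genes called highest. The 2 were LINC02783 with PADI1, a peptidylarginine deiminase gene 7509 bases away (0.990 FPKM in KALS-1), and LINC02082 with the pseudogene EGFEM1P in KNS-42. Pairs of the 3-line table included LINC01778 with the syndecan gene SDC3 (187 FPKM in SNU-466, 35036 bases away). LINC01750 lay 615 bases from the potassium channel gene KCND3 (4.29 FPKM in SNU-466, against 0.020 FPKM in the second line). LINC02009 lay 3527 bases from the chemokine receptor-like gene CCRL2 (2.04 FPKM in AM-38, against 0.565 FPKM in the second line). Among the 31 are LINC genes that are each other's neighbour and so count on both sides, such as LINC01443 and LINC01444 in A-172 (2.14 and 3.06 FPKM). The span of LINC01444 lies within that of LINC01443 on the other strand, and other pairs among the 31 also overlap. Whether such pairs share reads was not tested. The pairs named here beyond the most abundant LINC genes were chosen after their values were seen.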

How the data were processed

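Poly(A) RNA of 11 lines was measured in 2 libraries each. In 2 tables, analysed apart, the authors deposited a read count and an FPKM value for every listed gene in each library, with a gene length. The submitters' processing notes name StringTie 1.3.3, HTSeq 0.6.0, cutadapt 1.9.1, HISAT2 2.2.1, FastQC 0.10.1 and the build hg38/GRCh38, without roles. No source used here gives the annotation release. Symbols matched 2220 of 2221 and 5382 of 5383 IDs. Positions are from GENCODE 29 (GRCh38), whose exon lengths equal the deposited length for 26 of 80 and 49 of 218 LINC genes, so the authors' gene models partly differ. Promoters are RefSeq's (GRCh38.p14).

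Library totals were computed as reads divided by length and FPKM, the median over genes at 20 FPKM or more with at least 200 reads, and gave back the deposited FPKM within 0.01 for at least 99.9% of genes. Counts were fitted with the edgeR 4.0.16 quasi-likelihood test (R 4.3.3), 1 coefficient per line, with these totals and filterByExpr. For the highest or lowest line, the p of a gene was the largest one-sided p over pairs of lines. All p-values are Benjamini-Hochberg adjusted over the whole table, with calls at 0.05 and a log2 difference of 1. SE was worked back from F. The script was tested on simulated data in which most genes had 1 mean in all lines, unlike these tables. That test gives no error rate for the calls made here. DESeq2 1.42.0, limma 3.58.1, TMM and RLE scaling, no filter, a replicate block, other FPKM limits and leaving out libraries were alternatives. Intervals and floors cover counting error only.

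Members, lists and tests were chosen with earlier results of these data known. Named genes are, per line, the 3 most abundant, up to 4 restricted, the 2 highest and the 1 lowest by size of difference; per table, the 5 with the largest range; and a list of 15 taken whatever their values, of which the tables hold LINC00511, LINC00520, LINC00460, LINC00632, LINC00707 and LINC00518. Others are named as chosen after their values were seen or as counts of 5 or fewer.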

Additional observations from a re-analysis of the deposited data

How the results depend on the processing

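The counts of LINC genes that differed, or were highest or lowest in 1 line, stayed within 1.5 times under most alternatives. These were the scalings, limma, no filter and the replicate block. The same held under DESeq2, except that 19 in place of 35 were highest among the 8 lines (26.8%, against 31.8% of all tested genes). By the restriction limits 1 gene of the 8-line set passed, against 5 with 0.5 FPKM in the line (2.79% of all genes) and 8 with below 0.2 FPKM elsewhere (4.32%). Those of the 3-line table numbered 17, against 28 with 0.5 FPKM (10.3% of all genes), 10 with 2 FPKM (4.68%), 11 with below 0.05 FPKM elsewhere (4.18%) and 27 with below 0.2 FPKM (10.1%). Among the 8 lines, 1 nearest gene within 20 kb and 5 within 500 kb shared the line, in place of 2. These are 25% and 27.8%, against 45.4% and 28% of all genes called highest. Among the 3 lines 21 within 20 kb and 45 within 500 kb did, in place of 31 (46.7% and 37.5%, against 53.9% and 42.2%). Leaving out 1 library gave 74 to 77 and 196 to 206 genes that differed (the filter then keeps more genes), 27 to 35 and 140 to 154 highest, 0 to 1 and 108 to 126 lowest, and 1 to 3 and 17 to 20 restricted. Each fit without 1 library leaves a line with a single library, so the size of these counts was not weighed against the background. Without LN-18 replicate 2 the share of LINC genes called highest among the 8 lines was slightly below that of all tested genes. Without any other single library of that table it was above. Without LN-229 replicate 1 there were 3 restricted LINC genes in the 8-line table (3.75%, against 1.98% of all genes). Without KNS-42 replicate 2 there were 2 (2.5%, against 1.85%). Leaving out both libraries of T98G or of SNU-1105, an alternative chosen after seeing the data, gave 39 and 37 highest. These are 54.9% and 52.1% of tested LINC genes, against 47.1% and 48.2% of all tested genes. The replicate block gave 33 and 145 highest (46.5% and 74.7%, against 40.9% and 64.4% of all tested genes). It changed no other count by over 1.5 times. Same-numbered deviations correlated at over 0.1 in 6 of 28 and 1 of 3 pairs of lines, with a largest correlation of 0.168 and 0.146. No reference was set for such correlations, so they cannot show whether replicate numbers pair the libraries. Of the named genes, 11 lost the call of a highest line under some setting, and none changed direction. The 8 lost under DESeq2 were LINC01203, LINC00491, LINC02302, LINC01484, LINC00842, LINC01885, LINC00460 and LINC00518, with log2 differences of 1.24 to 5.995 there. LINC01411, LINC01535 and LINC01003 lost it under other settings, and LINC02302 in 7 settings. The cause was not tested.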
